A study of Mus musculus with 2 samples.

Results

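Chemotactic receptors are the 9 genes Cxcr2, Cxcr4, Ccr1, Ccr2, Ccr7, Ccrl2, Cx3cr1, Fpr1 and Fpr2, chosen as the features of the count matrix that carry these symbols, 9 of 31053 in all. They were measured in 2 single-cell RNA libraries of CD11b+Ly6G+ cells sorted by flow cytometry from Lewis lung carcinoma (LLC) tumors, which were grown from cells injected subcutaneously into C57BL/6 mice. The Smad3-WT library came from wild-type hosts and the Smad3-KO library from hosts that lack Smad3, the transcription factor that carries TGF-β signals to the nucleus. Each library pooled 8 tumors, so there was 1 sample per genotype. The mice were 8 to 12 weeks old and of both sexes. The knockout allele has exon 8 deleted and exon 7 disrupted in every cell of the host, while the injected LLC cells carry intact Smad3 in both groups.

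Chemotactic receptors are seven-pass membrane proteins that couple to Gi-type G proteins and turn a gradient of ligand into directed movement. On neutrophils, Cxcr2 binds the ELR-type CXC chemokines that call the cells from marrow to inflamed tissue, while Cxcr4 binds Cxcl12 and retains young cells in, or returns aged cells to, the marrow. Ccr1 binds inflammatory CC chemokines, Fpr1 and Fpr2 sense formylated peptides from bacteria and damaged mitochondria, and Ccrl2 is an atypical receptor that presents chemerin without signalling through G proteins. Ccr2, Ccr7 and Cx3cr1 are better known from other cells, namely inflammatory monocytes, lymph-node-homing dendritic cells and T cells, and patrolling monocytes or resident macrophages.

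The 9 genes lie on chromosomes 1, 9, 11 and 17 of the mouse genome (GRCm38, GENCODE vM21 gene bounds). Chromosome 9 holds 4 of them. Ccrl2 spans chr9:111054486-111057519 and Cx3cr1 spans chr9:119901616-120069879. Ccr1 spans chr9:123962124-123968692 and Ccr2 spans chr9:124101950-124113557. Of these, Ccr2 is on the plus strand and the other 3 on the minus strand, and Ccr1 and Ccr2 lie 133257 bp apart. Fpr1 (chr17:17876471-17883940, minus strand) and Fpr2 (chr17:17887824-17893952, plus strand) are transcribed away from each other across 3883 bp. Cxcr2 (chr1:74153989-74161246, plus strand), Cxcr4 (chr1:128588199-128592293, minus strand) and Ccr7 (chr11:99144196-99155077, minus strand) lie far from the other members. Distances to genes outside the 9, such as Cxcr1, were not computed. The coding sequences of Fpr1 and Fpr2 shared 69.8% of aligned bases, and those of Fpr2 and Fpr3 88.2%. UMIs of close copies could be given to the wrong one. Over all cells of Smad3-WT and Smad3-KO, Fpr3 had 0 and 1 UMIs, beside 1033 and 845 of Fpr2.

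The promoters of Ccrl2, the receptor with the highest ratio between the libraries in neutrophil-like cells, and of Cxcr2 and Ccr1, both lower in Smad3-KO, are shown so that their letters can be read beside each other. Each run is the 240 bases from 250 to 11 bases before the RefSeq start (GRCm38.p6), read 5′ to 3′ on the gene's own strand, and capitals mark letters found by a search on both strands for NF-kB (GGG, any 5 bases, CC), AP-1 (TGANTCA), C/EBP (TTGCNNAA) and PU.1 (GAGGAA) motifs.
Ccrl2 (chr9:111057529-111057768): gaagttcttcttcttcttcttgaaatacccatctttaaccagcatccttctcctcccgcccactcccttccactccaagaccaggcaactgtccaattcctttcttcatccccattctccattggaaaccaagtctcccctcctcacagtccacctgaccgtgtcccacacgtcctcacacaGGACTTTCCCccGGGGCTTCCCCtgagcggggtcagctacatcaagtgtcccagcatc
Cxcr2 (chr1:74153744-74153983): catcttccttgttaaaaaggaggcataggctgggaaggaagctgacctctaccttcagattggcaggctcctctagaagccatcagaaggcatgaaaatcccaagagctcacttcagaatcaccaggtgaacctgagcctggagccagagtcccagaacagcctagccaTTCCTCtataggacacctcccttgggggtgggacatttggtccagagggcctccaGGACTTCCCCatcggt
Ccr1 (chr9:123968703-123968942): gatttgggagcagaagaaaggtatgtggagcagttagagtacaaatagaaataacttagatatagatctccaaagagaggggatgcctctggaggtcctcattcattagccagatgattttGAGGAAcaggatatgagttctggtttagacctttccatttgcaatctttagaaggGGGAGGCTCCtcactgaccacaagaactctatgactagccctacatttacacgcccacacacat
In Ccrl2 the NF-kB letters occurred from 68 to 59 bases before the start and, in overlapping matches, from 56 to 46 bases before it. In Cxcr2 they stood 26 to 17 bases, and in Ccr1 74 to 65 bases, before the start, with PU.1 letters at 81 to 76 bases in Cxcr2 and 129 to 124 bases in Ccr1. Promoters were given for 8 of the 9 genes, Ccr7 being the exception, and 4 of the 8 (Cxcr2, Ccr1, Ccrl2 and Cx3cr1) held NF-kB letters, against 44.2% of 32851 promoters of the same length. PU.1 letters were in 3 of the 8 (Cxcr2, Ccr1 and Fpr2) against 22.3% of all, and AP-1 and C/EBP letters in 0 of the 8 against 6.58% and 9.29%. The SMAD box CAGAC, searched on both strands but not put in capitals, was in Cx3cr1 and Fpr2 and in 40.9% of all promoters. A match of letters is a description and not a site of binding.

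The filter on cells left 3520 cells of the Smad3-WT library, 12176201 UMIs in all and a median of 1318.5 per cell. Of the Smad3-KO library it left 2433, which together had 4146792 UMIs and a median of 1199. Although the sort was for CD11b+Ly6G+ cells, clusters with the markers of neutrophils held 1810 Smad3-WT cells (51.4%) and 1078 Smad3-KO cells (44.3%), and other clusters carried the markers of monocytes, macrophages, dendritic cells, T cells, B cells, NK cells, fibroblasts and LLC cells. The make-up differed between the libraries, with 798 and 76 monocyte-like, 39 and 461 T-like, 2 and 531 B-like, and 406 and 34 LLC carcinoma-like cells in Smad3-WT and Smad3-KO. There were 73 barcode sequences found in both libraries, with the deeper cell in Smad3-WT in 54 pairs and a median of 1.16% of the deeper cell's UMIs in the shallower one. These barcodes made up 6 of 1810 and 11 of 1078 neutrophil-like cells but 17 of the 34 Smad3-KO LLC carcinoma-like cells, whose values are therefore not used. Without them the counts of receptors given below for all neutrophil-like cells were the same, and no level resting on at least 50 UMIs left its interval. The counts given for other cells and for single clusters were not repeated without these barcodes. Smad3 itself had 29 UMIs among Smad3-WT neutrophil-like cells and 225 among those of Smad3-KO, which checks nothing about the genotype, since reads of a 5′ library can lie outside the deleted exon.

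Levels are given as CPM, the UMIs of a gene over all UMIs of the named cells scaled to 1 common total, with an exact Poisson 95% interval, and ratios as Smad3-KO over Smad3-WT with an exact 95% interval. The intervals cover counting error only, and with 1 library per genotype there is no test of genotype. A UMI marks 1 transcript at its 5′ end, so levels were not divided by gene length.

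In neutrophil-like cells, 6 of the 9 receptors had over 250 UMIs in each library, and their levels went different ways. Ccrl2 was at 1042 CPM (992 to 1093, 1665 UMIs) in Smad3-WT and at 3685 CPM (3582 to 3790, 4860 UMIs) in Smad3-KO, a ratio of 3.54 (3.34 to 3.74). Ccrl2 is also in the study's own list of genes that differ between these libraries, so its ratio is not independent of that list. Ccr1, the receptor of Ccl3, Ccl5, Ccl6 and Ccl9, was at 1663 CPM (1600 to 1727) in Smad3-WT and 653 CPM (610 to 698) in Smad3-KO, a ratio of 0.393 (0.363 to 0.424). Thus the most abundant of the 9 receptors in these cells was Ccr1 in the Smad3-WT library and Ccrl2 in the Smad3-KO library.

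Both CXC receptors were lower in the Smad3-KO library. Cxcr2 was at 737 CPM (696 to 780, 1178 UMIs) in Smad3-WT and at 344 CPM (313 to 377, 454 UMIs) in Smad3-KO, a ratio of 0.467 (0.418 to 0.521). Cxcr4 was at 467 CPM (434 to 502, 746 UMIs) and 206 CPM (182 to 232, 272 UMIs), a ratio of 0.442 (0.383 to 0.508). Over all neutrophil-like cells the opposing receptors for leaving and staying in marrow thus had ratios with overlapping intervals, which was not so within cluster 1, described below.

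The formyl peptide receptors were higher in Smad3-KO by less than 2-fold. Fpr1 was at 384 CPM in Smad3-WT (613 UMIs) and 702 CPM in Smad3-KO (926 UMIs), a ratio of 1.83 (1.65 to 2.03). Fpr2 was at 401 CPM (641 UMIs) and 526 CPM (694 UMIs), a ratio of 1.31 (1.18 to 1.46). The neighbors on chromosome 17 thus differed in the same direction, by unequal amounts.

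The 3 remaining receptors were near absent from neutrophil-like cells. Ccr2 had 36 UMIs among Smad3-WT and 20 among Smad3-KO cells (22.5 and 15.2 CPM), a ratio of 0.673 whose interval, 0.369 to 1.19, includes no difference. Its level relative to monocyte-like cells, 0.032 in Smad3-WT and 0.049 in Smad3-KO, was like the median of the monocyte markers there, 0.033 and 0.051, so it cannot be told apart from free or admixed monocyte RNA. Cx3cr1 had 4 and 5 UMIs, just above the floor of 3 UMIs over the class, and Ccr7 had 0 and 3, at or under it.

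Of the 7 receptors with at least 20 UMIs in neutrophil-like cells, 1 (Ccrl2) was at least 2-fold higher in Smad3-KO, 3 (Cxcr2, Cxcr4 and Ccr1) were at least 2-fold lower, and 3 (Fpr1, Fpr2 and Ccr2) were neither. Over all 6065 genes with as many UMIs, 7.73% were at least 2-fold higher and 17.7% at least 2-fold lower. The median ratio was 0.673 over the 7 receptors and 0.797 over all genes, so a typical gene was itself below 1. With median-of-ratios scaling, another common base for the libraries, Ccrl2 had a ratio of 4.19, Fpr1 2.17, Fpr2 1.55, Ccr2 0.797, Cxcr2 0.553, Cxcr4 0.523 and Ccr1 0.465, which leaves only Ccr1 past 2-fold lower and adds Fpr1 to Ccrl2 past 2-fold higher. The shares of all genes past 2-fold were not computed with that scaling, and those above do not apply to it. Markers of other classes were also detected in neutrophil-like cells: the 8 monocyte markers summed to 397 CPM in Smad3-WT and 584 CPM in Smad3-KO, the 11 macrophage markers to 536 and 600 CPM, the 9 T cell markers to 12.5 and 91.0 CPM, and the 8 B cell markers to 68.8 and 143 CPM, with Cd79a, Cd79b, Ms4a1, Igkc and Pax5 among those at 0 in Smad3-WT. In an alternative, cells with 2 or more UMIs of another class's markers were left out, which kept 1552 and 808 neutrophil-like cells. The ratio was then 4.30 for Ccrl2, 1.30 for Fpr2 and 0 for Ccr2, and the ranges that hold the other ratios are given below. Leaving out cells does not remove free RNA from those kept, and the part of these markers in the differences was not tested.

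**Figure D1:**
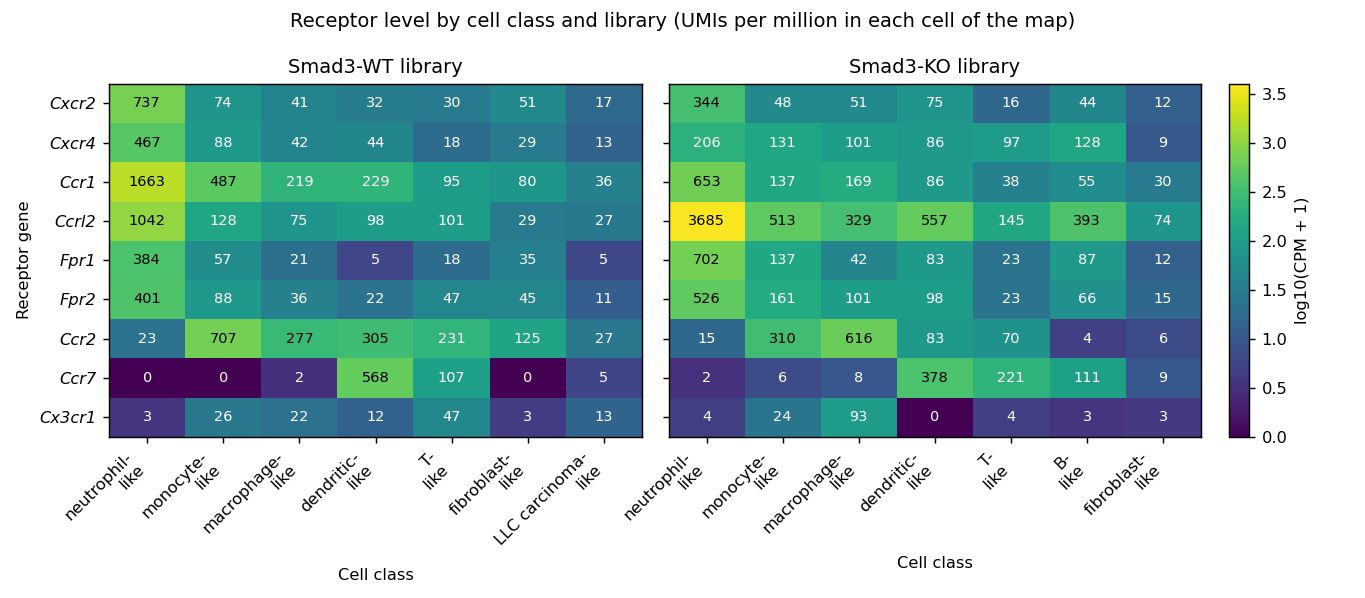
Heat map of the level of each of the 9 receptors (rows, CPM on a log color scale) in each marker-defined cell class of the Smad3-WT and Smad3-KO libraries (columns), with the CPM printed in each field; classes with too few cells and the Smad3-KO LLC carcinoma-like cells are left out. Ccrl2 is at 1042 CPM in Smad3-WT and 3685 CPM in Smad3-KO neutrophil-like cells, while Ccr7 stands out in dendritic-like cells.

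The share of neutrophil-like cells with at least 1 UMI went the same way as the level for each of the 6 receptors. Ccrl2 was found in 30.3% of cells from Smad3-WT against 76.7% from Smad3-KO, and Ccr1 in 66.7% against 48.4%. Cxcr2 was detected in 42.2% and 27.1%, Cxcr4 in 25.1% and 16.0%, Fpr1 in 23.7% and 45.9%, and Fpr2 in 25.5% and 41.0%. Smad3-KO neutrophil-like cells were deeper (median 1015 against 740 UMIs), so each cell was also thinned to 500 UMIs, and the order of the libraries was the same for all 6.

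In thinned cells Ccrl2 was in 23.6% and 65.9%, Ccr1 in 52.3% and 25.9%, Cxcr2 in 29.4% and 16.6%, Cxcr4 in 16.8% and 7.98%, Fpr1 in 15.7% and 26.8%, and Fpr2 in 15.9% and 22.6% of Smad3-WT and Smad3-KO neutrophil-like cells. As a background, Smad3-WT LLC carcinoma-like cells had a UMI of Cxcr2 in 13.5% of cells (median depth 13127.5 UMIs), and in 0.739% after thinning. That these epithelial tumor cells lack the receptors was assumed and not tested. The thinned background for the other 5 was between 0 and 2.71% of cells, the highest being Ccr1. These shares lay below the thinned shares in neutrophil-like cells. Thinning removes a larger part of the UMIs of these deep cells than of Smad3-WT neutrophil-like cells (median 740 UMIs), free RNA included. The low thinned background was thus set partly by depth and does not limit the free RNA in neutrophil-like cells. Before thinning, Cxcr2 was in 42.2% of Smad3-WT neutrophil-like cells, beside the 13.5% above.

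Neutrophil-like cells differed in how many of the 6 receptors were detected. Cells with none of the 6 made up 7.79% in Smad3-WT and 4.17% in Smad3-KO, or 15.2% and 9.93% after thinning. Cells with just 1 made up 25.1% and 17.1%, or 36.0% and 36.3% after thinning. Fpr1 and Fpr2 were found together more often than their separate shares would give: 40.1% of the Smad3-WT cells with Fpr1 also had Fpr2, against 25.5% of all, and in Smad3-KO the shares were 48.5% and 41.0%. The excess in Smad3-KO was not particular to this pair. Of Smad3-KO cells with Cxcr2, 23.6% had Cxcr4 against 16.0% of all, and 61.0% had Ccr1 against 48.4%. In Smad3-WT the shares were 24.9% against 25.1% for Cxcr4 and 74.5% against 66.7% for Ccr1. Cxcr2 and Ccrl2 went the other way, with Ccrl2 in 27.1% of Smad3-WT cells that had Cxcr2 against 30.3% of all, and in 67.1% against 76.7% in Smad3-KO. Deeper cells have more of every gene detected, which raises each such share, and these are descriptions of the cells of 1 library each.

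The 6 receptors together took 4693 CPM (4588 to 4801) in Smad3-WT and 6116 CPM (5983 to 6251) in Smad3-KO neutrophil-like cells, and their make-up changed more than their sum. Of the 6-receptor UMIs, Ccrl2 made up 22.2% in Smad3-WT against 60.2% in Smad3-KO. Ccr1 made up 35.4% and 10.7%, Cxcr2 15.7% and 5.63%, and Cxcr4 9.95% and 3.37%. Fpr2 kept a similar part of the sum, at 8.55% and 8.60%, while the part of Fpr1 was larger in Smad3-KO, at 8.17% and 11.5%. In the Smad3-KO library an atypical receptor, which does not itself drive migration, was thus the majority of the receptor transcripts counted.

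**Figure D2:**
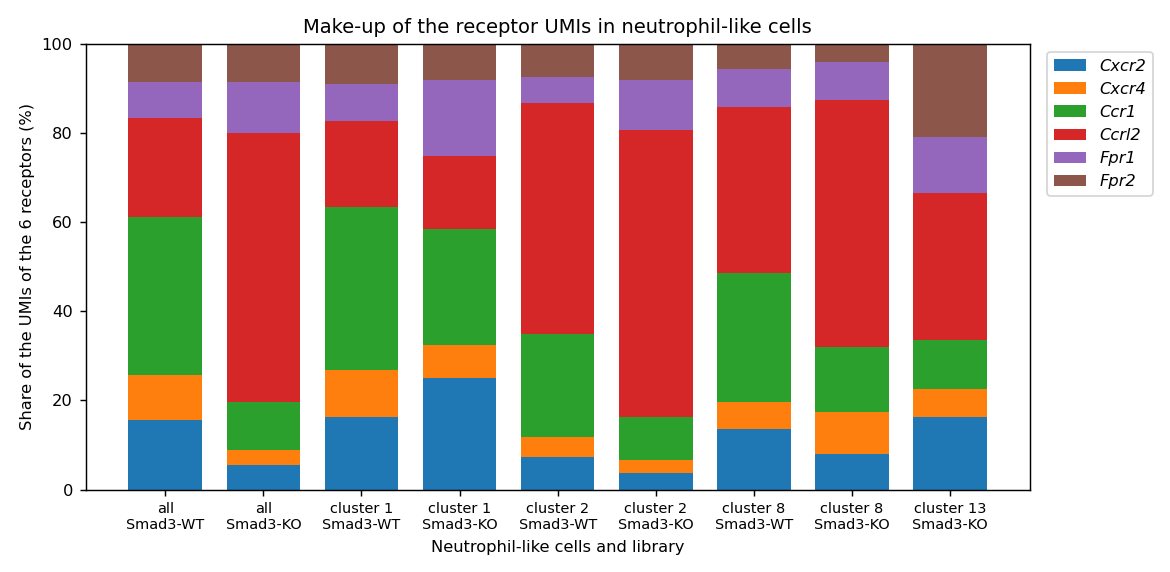
Stacked bars of the percent of 6-receptor UMIs taken by each receptor in neutrophil-like cells and in their clusters, for each library; each bar adds up to the whole of the 6-receptor UMIs. The Ccrl2 segment is 22.2% in Smad3-WT and 60.2% in Smad3-KO neutrophil-like cells, and 19.4% and 16.6% in cluster 1.

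Neutrophil-like cells fell into 4 clusters, and different clusters held most of them in the 2 libraries. Cluster 1, led by Mmp9, G0s2, Il1r2 and Osm, held 1606 Smad3-WT and 146 Smad3-KO cells, while cluster 2, led by Stfa2, Il1a, Csf3 and Tnfaip3, held 38 and 844. Cluster 8, led by the interferon-induced genes Ifit1, Ifit3 and Usp18, held 166 and 20 cells. Cluster 13, led by Camp, Ngp and Ltf of immature neutrophil granules, held 0 and 68. The 9 receptors did not enter the clustering, although Cxcr2 was among the leading genes of cluster 1.

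Within cluster 1 the Ccrl2 difference was not seen. Ccrl2 was at 888 CPM (840 to 939, 1252 UMIs) in Smad3-WT and at 692 CPM (543 to 869, 74 UMIs) in Smad3-KO cells of this cluster, a ratio of 0.779 (0.608 to 0.985). Cxcr2 went above 1, from 741 CPM (696 to 787) to 1047 CPM (862 to 1260), a ratio of 1.41 (1.15 to 1.72). Cxcr2 and Ccrl2 therefore stood in the opposite order of libraries inside this cluster than over all neutrophil-like cells.

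Cxcr4 and Ccr1 kept their direction in cluster 1 with ratios closer to 1. Cxcr4 was at 485 and 309 CPM, a ratio of 0.636 (0.434 to 0.902), and Ccr1 at 1673 and 1085 CPM, a ratio of 0.648 (0.533 to 0.781). Fpr1 was at 375 and 711 CPM, a ratio of 1.90 (1.47 to 2.42), much as over all neutrophil-like cells, and Fpr2 at 411 and 337 CPM, a ratio of 0.820 whose interval (0.568 to 1.15) includes no difference. Of 7 receptors, 0 were at least 2-fold higher and 1 at least 2-fold lower, against 9.1% and 25% of all genes tested in cluster 1. The 1 was Ccr2, at 29 and 0 UMIs, where 0 UMIs still allow a level above that of Smad3-WT.

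Within cluster 2, whose Smad3-WT values rest on 38 cells, Ccrl2 was higher in Smad3-KO. It was at 2449 CPM (1909 to 3094, 70 UMIs) in Smad3-WT and 4437 CPM (4309 to 4567, 4585 UMIs) in Smad3-KO, which is a ratio of 1.81 (1.43 to 2.33). Fpr1 was at 279.8 and 766 CPM, a ratio of 2.74 (1.38 to 6.37) on 8 Smad3-WT UMIs, and Ccr1 at 1084 and 662 CPM, a ratio of 0.610 (0.426 to 0.905). The ratios of Cxcr2 (0.752, 0.403 to 1.59), Cxcr4 (0.931, 0.421 to 2.57) and Fpr2 (1.60, 0.862 to 3.35) had intervals that include no difference. Of 6 receptors, 1 (Fpr1) was at least 2-fold higher and 0 at least 2-fold lower, against 27.7% and 22.6% of all genes tested in cluster 2.

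Between the clusters of 1 library the receptors also differed. In Smad3-KO cells Cxcr2 was at 1047 CPM in cluster 1, at 263 CPM (233 to 296) in cluster 2 and at 354 CPM (268 to 457) in the immature cluster 13, and Ccrl2 was at 692, 4437 and 719 CPM. In the interferon-induced cluster 8, Ccrl2 was at 2148 CPM in Smad3-WT and 5690 CPM (4532 to 7053) in 20 Smad3-KO cells, and Cxcr4 at 351 and 960 CPM, a ratio of 2.74 (1.41 to 4.98), opposite in direction to that over all neutrophil-like cells. Ccr1, at 238 CPM, and Cxcr4, at 140 CPM, were lowest in the immature cluster among the Smad3-KO neutrophil-like clusters, although the interval of Cxcr4 (88.9 to 210.3) overlaps that of cluster 2 (169 to 224). The ratio over all neutrophil-like cells thus mixes a difference within clusters with a difference in which clusters are present, and with 1 library per genotype the cluster and the library cannot be told apart.

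**Figure D3:**
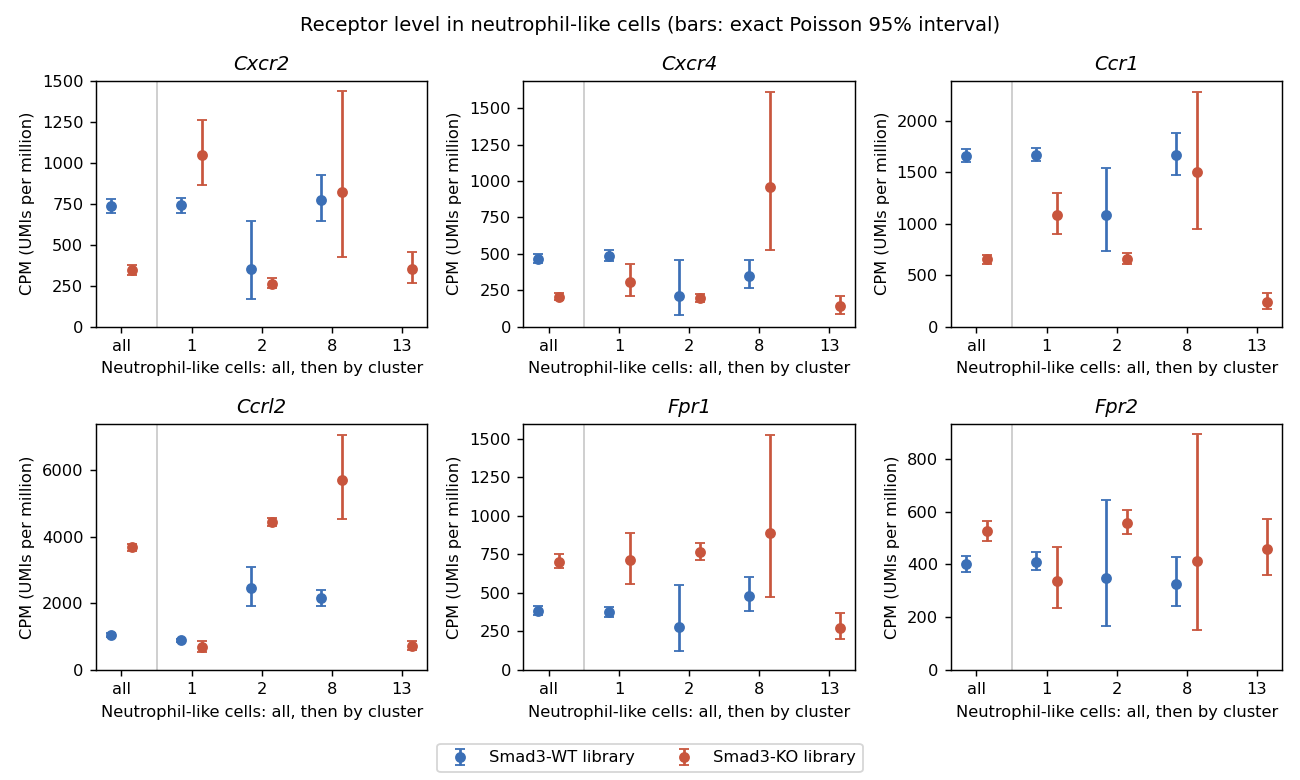
Level (CPM, linear axis from 0, scaled for each gene) of the 6 receptors in all neutrophil-like cells and in each of their clusters, for the Smad3-WT and Smad3-KO libraries; points are 1 library each and bars are exact Poisson 95% intervals. In cluster 1 Cxcr2 is at 741 CPM in Smad3-WT and 1047 CPM in Smad3-KO, and in cluster 2 Ccrl2 is at 2449 and 4437 CPM.

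Over all cells of each library, where the make-up of classes enters too, the receptors had other ratios. Cxcr2 had a ratio of 1.02, Cxcr4 1.34, Ccr1 0.635, Ccr2 0.253, Cx3cr1 0.489, Ccr7 4.21, Ccrl2 7.04, Fpr1 3.76 and Fpr2 2.4. Of the 9, 4 were at least 2-fold higher and 2 at least 2-fold lower, where 16.3% and 15.4% of 12612 genes were. The lower Cxcr2 level in Smad3-KO neutrophil-like cells was thus not visible in a total over the sorted cells.

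Outside neutrophil-like cells, Ccr2 was highest in monocyte- and macrophage-like cells, and its order in these classes was opposite in the 2 libraries. In monocyte-like cells it was at 707 CPM (675 to 739, 1899 UMIs) in Smad3-WT and 310.1 CPM (232 to 407, 52 UMIs) in Smad3-KO, a ratio of 0.439 (0.326 to 0.578). In macrophage-like cells it was at 277 CPM (254 to 302, 540 UMIs) and 616 CPM (483 to 774, 73 UMIs), a ratio of 2.22 (1.72 to 2.84). In Smad3-WT the order was monocyte-like, then dendritic-, macrophage- and T-like cells with intervals that overlap, and in Smad3-KO macrophage-like, monocyte-like and then dendritic-like cells, with intervals that do not overlap between the first 3 places.

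This opposition moved with the division between the monocyte- and macrophage-like classes. Cluster 3, which holds most monocyte-like cells, passed 5 macrophage markers besides 7 monocyte markers, and had Ccr2 among its leading genes. When both classes were pooled, a choice made after seeing these values, Ccr2 was at 526 CPM in Smad3-WT and 437 CPM in Smad3-KO, a ratio of 0.830 (0.688 to 0.994). The macrophage-like ratio was 0.903 without an upper limit on UMIs per cell and 0.617 at a clustering resolution of 0.1, against 2.22 in the classes used here. In those runs Smad3-KO had no monocyte-like class of at least 20 cells, so the macrophage-like class need not hold the same cells.

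Ccr1 and Ccrl2 in these cells had the direction seen in neutrophil-like cells. Ccr1 was at 487 and 137 CPM in monocyte-like cells, a ratio of 0.282 (0.178 to 0.425), at 219 and 169 CPM in macrophage-like cells, a ratio of 0.770 (0.466 to 1.20), and at a ratio of 0.401 (0.289 to 0.543) when both were pooled. Ccrl2 had ratios of 4.01 (3.12 to 5.09) and 4.39 (3.0 to 6.29), and 4.13 (3.37 to 5.04) pooled. Neutrophil markers were also found in these cells, at a median of 0.099 of their neutrophil-like level in Smad3-WT and 0.119 in Smad3-KO monocyte-like cells, and of 0.056 and 0.138 in macrophage-like cells. Ccrl2 itself was at 0.123 and 0.139 of its neutrophil-like level in monocyte-like cells and at 0.072 and 0.089 in macrophage-like cells, within the range of the markers in each, so its ratio there cannot be told apart from neutrophil RNA. Cx3cr1 was low, at 24.4 CPM in Smad3-WT (113 UMIs) and 52.4 CPM in Smad3-KO (15 UMIs) of the pooled cells, a ratio of 2.15 (1.16 to 3.70). Among its classes, 11 UMIs in 46 Smad3-KO macrophage-like cells (92.8 CPM) gave the highest value.

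By counts, 2 of 8 receptors with at least 20 UMIs were at least 2-fold higher in Smad3-KO monocyte-like cells (Ccrl2 and Fpr1) and 2 at least 2-fold lower (Ccr1 and Ccr2), against 13% and 15.4% of all genes. In macrophage-like cells 6 of 8 were higher (Cxcr4, Ccr2, Ccrl2, Cx3cr1, Fpr1 and Fpr2) and 0 lower, against 12.9% and 20% of all genes. Of these 6, Cxcr4, Ccrl2, Fpr1 and Fpr2 are neutrophil receptors, and in Smad3-KO macrophage-like cells Ccrl2 and Fpr1 (0.060) were below the neutrophil-marker median of 0.138. Pooled, 4 of 8 were higher and 1 lower, against 11.8% and 13.4%. The Smad3-KO values rest on 76 monocyte-like and 46 macrophage-like cells, and in the latter Fpr1 had only 5 UMIs.

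Ccr7, which guides mature dendritic cells to lymph nodes, was highest in dendritic-like cells of both libraries. In dendritic-like cells it was at 568 CPM (497 to 646, 231 UMIs) in Smad3-WT and 378 CPM (316 to 450, 127 UMIs) in Smad3-KO, a ratio of 0.666 (0.532 to 0.831). Of these, 231 of 231 and 126 of 127 UMIs lay in cluster 12, led by Ccl22 and Il12b, where Ccr7 was at 2205 CPM in 28 Smad3-WT cells and 944 CPM in 43 Smad3-KO cells, a ratio of 0.428 (0.342 to 0.534). It was detected in 85.7% and 79.1% of the cells of cluster 12. In Smad3-KO the T-like cells followed at 221 CPM (189 to 257) and the B-like cells at 111 CPM (88.4 to 137), both lymphocytes that are known to use Ccr7 on the way to lymph nodes, and the intervals of these 3 classes do not overlap.

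In dendritic-like cells 4 of 8 receptors were at least 2-fold higher in Smad3-KO (Cxcr2, Ccrl2, Fpr1 and Fpr2) and 2 at least 2-fold lower (Ccr1 and Ccr2), against 12.6% and 11.2% of all genes. Ccr2 was at 305 CPM (124 UMIs) and 83.4 CPM (28 UMIs), a ratio of 0.274 (0.175 to 0.415). Relative to monocyte-like cells Ccr2 was at 0.431 in Smad3-WT and 0.269 in Smad3-KO. Both lay within the range of the monocyte markers there, 0.046 to 0.722 and 0.030 to 1.05. The Ccr2 ratio in dendritic-like cells thus cannot be told apart from monocyte RNA. Ccrl2 was at 98.4 CPM (40 UMIs) and 557 CPM (187 UMIs), a ratio of 5.67 (4.01 to 8.18). The neutrophil receptors Cxcr2, Fpr1 and Fpr2 had 25, 28 and 33 UMIs in these Smad3-KO cells. All 4 receptors that were higher are neutrophil receptors, and the neutrophil markers were at a median of 0.056 of their neutrophil-like level in Smad3-WT and 0.096 in Smad3-KO dendritic-like cells. In the latter Ccrl2 (0.151) and Fpr1 (0.119) lay within the range of the markers, 0.032 to 0.179.

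Droplet libraries carry free RNA, so each neutrophil receptor was also set against the 12 neutrophil markers in the same cells, as the level relative to neutrophil-like cells. In Smad3-WT LLC carcinoma-like cells the 6 receptors were at 0.013 to 0.028 of their neutrophil-like level, and the markers at a median of 0.022 (0.010 to 0.052). In Smad3-WT monocyte-like cells Ccr1 was at 0.293, Fpr2 at 0.219 and Cxcr4 at 0.189, against a marker median of 0.099 and a range of 0.032 to 0.432. Ccr1 in Smad3-WT monocyte-like cells thus lay inside the range of the markers, though above their median and with only 1 of the 12 at or above it.

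Cxcr4 stood apart from the markers in several Smad3-KO classes. It was at 0.623 of its neutrophil-like level in B-like cells, against 0.021 to 0.127 for the markers, and at 0.470 in T-like cells, against 0.021 to 0.086. It was also above every neutrophil marker in Smad3-KO monocyte-like cells (0.636, highest marker 0.322), macrophage-like cells (0.491, highest marker 0.190) and dendritic-like cells (0.419, highest marker 0.179). In B-like cells the other 5 receptors were at 0.085 to 0.127, no higher than the highest marker to 3 decimals. Elsewhere in Smad3-KO, Cxcr2 in dendritic-like cells (0.216) and Ccr1 in macrophage-like cells (0.259) also passed the highest marker, as did Fpr2 in both (0.187 and 0.192), with intervals that reach into the range of the markers. Cxcr4 was at 128 CPM (105 to 156) in these B-like and 97.0 CPM (76.3 to 122) in T-like cells, and its intervals overlap from each class to the next in the Smad3-KO order, from neutrophil- through monocyte-, B-, macrophage- and T-like to dendritic-like cells. Ccrl2, at 393 CPM in B-like cells, was at 0.107 of its neutrophil-like level there.

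**Figure D4:**
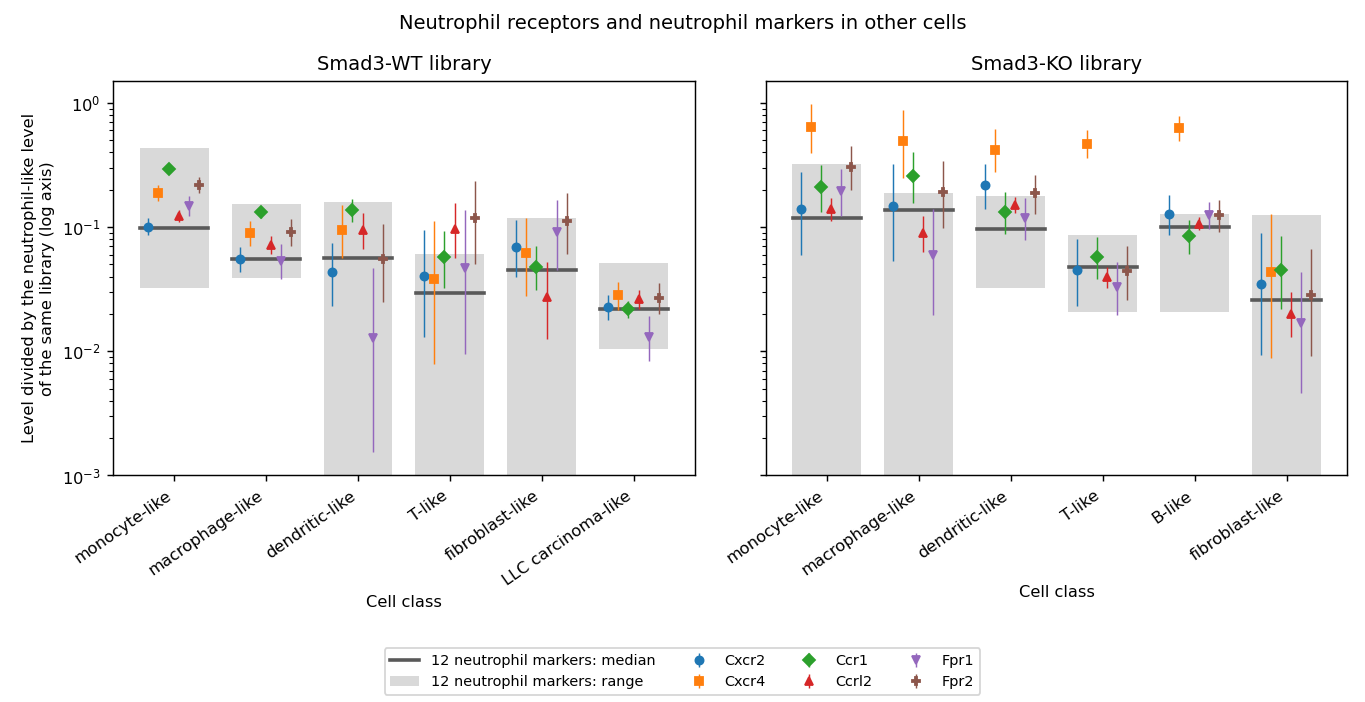
Level of the 6 neutrophil receptors in other cell classes relative to neutrophil-like cells of the same library (log axis, points with exact 95% intervals), beside the median (dark lines) and range of 12 neutrophil markers (grey bars; bars that reach the bottom include markers at 0). Cxcr4 is at 0.623 in Smad3-KO B-like and 0.470 in T-like cells, above the grey bars, and the Smad3-WT LLC carcinoma-like points lie between 0.013 and 0.028.

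In the authors' deposited averages for 13 clusters of unfiltered cells, in which the libraries are pooled, the receptors peaked in different clusters. The table states no unit, and its values were read as UMIs of a gene per 1311 UMIs because each column has that sum. They have no spread. Cxcr2 was highest in cluster 6 (1.46), led by Retnlg and Il1r2, and in cluster 1 (1.02), and Ccr1 in the same clusters (2.29 and 2.21). Cxcr4 was highest in cluster 6 (0.739) and in cluster 10 (0.680), the latter led by the immature granule genes Camp, Ngp and Ltf. In this immature cluster 10 Ccr1 was at 1.41, above its 0.864 in cluster 3, and both receptors thus stood higher among the authors' clusters than among the Smad3-KO clusters above. Ccrl2 was at 6.77 in cluster 3, led by Il1a, Csf3 and Tnfaip3, and next at 2.88 in cluster 4. Fpr1 (1.02) and Fpr2 (0.790) were also highest in cluster 3.

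The mononuclear receptors were highest elsewhere in the same table. Ccr2 was at 0.842 in cluster 5, led by Ppbp and Ms4a4c, at 0.566 in cluster 7, led by C1qa, C1qb and C1qc, and at 0.529 in cluster 12, led by Retnla and Mrc1. Ccr7 was at 0.967 in cluster 13, led by Ccl22 and Fscn1, and at 0.262 in cluster 9, led by the T cell genes Cd3e and Cd3g. Cx3cr1 did not pass 0.065 in any cluster, its highest being cluster 12. The deposited clusters were numbered by the authors and do not correspond to the cluster numbers used above.

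**Figure D5:**
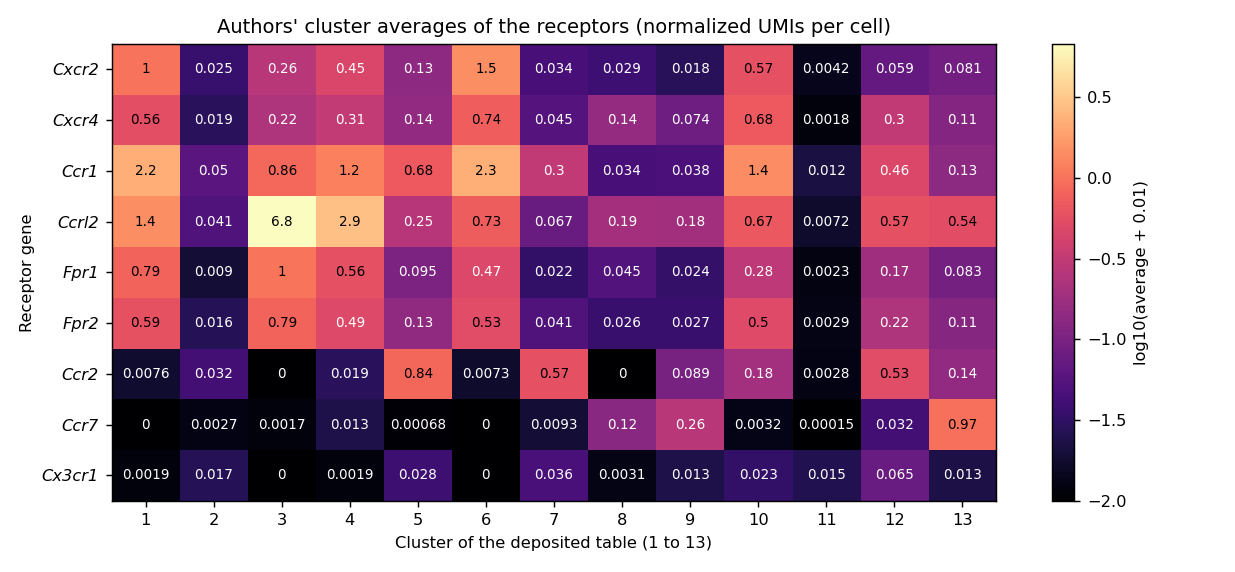
The authors' average (UMIs per 1311 UMIs, printed in each field, with color on a log scale) of each of the 9 receptors (rows) in each of their 13 clusters (columns), both libraries pooled. Ccrl2 is highest in cluster 3 at 6.77, Cxcr2 in cluster 6 at 1.46, Ccr2 in cluster 5 at 0.842 and Ccr7 in cluster 13 at 0.967.

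Genes most like each receptor were read from the Pearson correlation of log2(average + 0.01) over these 13 clusters, among 4063 genes, as a description without a test. All 13 points share 2 libraries and the same base of clusters, and clusters are not replicates. For Cxcr2 they were Il1r2 (r = 0.984), G0s2 (0.983) and Cox17 (0.982), and for Cxcr4 they were Btg2 (0.981), Sorl1 (0.971) and Heca (0.970). Ccr1 was most like Cd14 (0.992), Tlr13 (0.991) and F630028O10Rik (0.990).

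For Ccrl2 they were Acod1 (0.989), Kdm3a (0.987) and Gadd45b (0.984). Fpr1 was most like Il1f9 (0.995), Ier5 (0.995) and Cxcl2 (0.993), a ligand of Cxcr2, and Fpr2 like Dusp1 (0.990), Ptgs2 (0.989) and Tet2 (0.988). Among the mononuclear receptors, Ccr2 was most like Dync1i2 (0.975), Dok2 (0.965) and Ms4a6d (0.956), and Ccr7 like Atp1b1 (0.976), Cd200 (0.947) and Slc4a8 (0.923). Cx3cr1, which was low in every cluster, was most like Ap2a2 (0.955), Piezo1 (0.934) and Adam9 (0.925).

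The ligands of the receptors were read in the same cells. Of 24 listed, 17 had at least 20 UMIs in neutrophil-like cells, of which 4 were at least 2-fold higher and 8 at least 2-fold lower in Smad3-KO (7.73% and 17.7% of all genes), with a median ratio of 0.568 against 0.797 over all genes. Among the ligands of Ccr1, Ccl6 was at 9582 and 1866 CPM, a ratio of 0.195 (0.187 to 0.203), and Ccl9 at 532 and 76.6 CPM, a ratio of 0.144 (0.116 to 0.177). Ccl5, which also binds Ccr1, was at 6.26 and 40.9 CPM, a ratio of 6.54 (3.30 to 14.4), and at 2597 and 11039 CPM in dendritic-like cells. Among the ligands of Ccr2, Ccl2 was at 88.9 and 9.10 CPM, a ratio of 0.102 (0.0517 to 0.185). In monocyte-like cells Ccl2 was at 2983 and 233 CPM, and with monocyte markers in neutrophil-like cells at a median of 0.033 and 0.051 of their monocyte-like level, the Ccl2 values cannot be told apart from monocyte RNA. Ccr1 and its ligands Ccl6 and Ccl9 were thus lower in Smad3-KO neutrophil-like cells. Its ligands Ccl5 and Ccl3 were higher there, Ccl5 on 10 and 54 UMIs and Ccl3 with a ratio of 1.37 (1.34 to 1.41). Dendritic markers in these cells were at a median of 0.0016 in Smad3-WT and 0.0082 in Smad3-KO of their dendritic-like level. The part of dendritic RNA in the Ccl5 values was not tested. In monocyte-like cells Ccl9 was at 2215 and 304 CPM, above its neutrophil-like levels. The part of monocyte RNA in the Ccl9 values was not tested.

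For the formyl peptide receptors, Anxa1 was at 146 and 848 CPM, a ratio of 5.79 (5.02 to 6.69), Saa3 at 8.76 and 340 CPM, a ratio of 38.8 (22.9 to 71.5), beside 1504 and 24728 CPM in fibroblast-like cells, and Camp at 0 and 3787 UMIs. The 68 immature cells, all Smad3-KO, held 879 of 1118 Anxa1 UMIs and 3761 of 3787 Camp UMIs. Without them Anxa1 was at 146 CPM in Smad3-WT and 207 CPM in Smad3-KO neutrophil-like cells. Within cluster 1 it was at 150 and 701 CPM, a ratio of 4.66 (3.53 to 6.10) on 212 and 75 UMIs. In cluster 2 it had 1 and 161 UMIs, and the interval of its ratio includes no difference. The ligands Cxcl2, Cxcl3, Ccl3 and Cxcl12 were named after their values were seen: Cxcl2 (35697 and 50435 CPM) and Cxcl3 (14944 and 6945 CPM), both ligands of Cxcr2, and Ccl3 (7645 and 10488 CPM), a ligand of Ccr1, were abundant in neutrophil-like cells, and Cxcl12, the ligand of Cxcr4, had 0 and 1 UMIs there but 399 and 1921 CPM in fibroblast-like cells.

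Most other receptors for chemoattractants had few UMIs in these cells. Of 36 such genes, 9 had at least 20 UMIs, of which 0 were at least 2-fold higher and 2 at least 2-fold lower (7.73% and 17.7% of all genes), and their median ratio was 0.713. Ltb4r1, the high-affinity receptor of leukotriene B4, was at 300.4 and 105 CPM, a ratio of 0.348 (0.286 to 0.422), and C5ar2 at 39.4 and 15.2 CPM, a ratio of 0.385 (0.220 to 0.645). Ptafr, the receptor of platelet-activating factor, was at 238 and 461 CPM, a ratio of 1.93 (1.70 to 2.20), and C5ar1, that of complement C5a, at 1144 and 681 CPM, a ratio of 0.595 (0.549 to 0.645). Cxcr1, the near copy of Cxcr2, had 52 and 54 UMIs and a ratio of 1.26 (0.844 to 1.88).

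Downstream of the receptors, 40 of 42 signalling genes had at least 20 UMIs in neutrophil-like cells, 1 at least 2-fold higher and 4 at least 2-fold lower (7.73% and 17.7% of all genes), and their median ratio of 0.779 lay near the 0.797 of all genes. Among those lower were Grk5, a kinase that desensitizes receptors, at 38.8 and 6.82 CPM (62 and 9 UMIs), and Arrb2, an arrestin, at 227 and 112 CPM, a ratio of 0.494 (0.405 to 0.600). The other 35 of 40 genes were past neither bound.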

How the data were processed

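The authors deposited raw counts of UMIs per gene and barcode, made with Cell Ranger 3.0.2 from a 5′ kit and aligned to mm10 per the processing notes, together with averages as a signal per gene for each library and for 13 clusters (read as UMIs per 1311 UMIs, from the column sums). Those averages named the library of each barcode: the sums over a barcode suffix equalled the average of 1 library for 19114 genes, with a largest difference of 3.58e-08. The authors' fold changes and p-values in the same tables were not used. The further selection of cells by neutrophil markers in the study was replaced by classes from clusters.

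As in the study, a cell needed 200 or more genes, a mitochondrial share under 10% and a total between 500 and 20000 UMIs. This removed 382 deeper Smad3-WT and 0 deeper Smad3-KO barcodes of 4116 and 2514. Counts were scaled to 10000 per cell and clustered with scanpy 1.11.5 and igraph 0.11.9 (2000 variable genes without the receptors and their ligands, 100 principal components, 15 neighbours, Louvain, resolution 1). A cluster took a name from at least 3 markers detected in 10% of cells at 2-fold the level of other cells. Scrublet marked 3 of 5953 cells (0.0504%), so it did not work, and doublets were not removed.

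UMIs were summed per library and class. Classes needed 20 cells in a library. Intervals are exact Poisson for levels, exact conditional for ratios (scipy 1.17.1), all at 95% and covering counting error only, and the floor is 3 UMIs over the class. Genes with at least 20 UMIs over both libraries were compared with a 2-fold bound, with no test, since there is 1 library per genotype. The script was tested on simulated data. Shares were also computed after thinning to 500 UMIs, leaving out shallower cells, of which the filter leaves none. Promoters are RefSeq sequences (GRCm38.p6), and gene bounds and coding sequences are from GENCODE vM21.

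The members and gene lists were chosen with earlier results of these data known. Named are the 9 receptors, up to 8 genes per list with the largest ratio and at least 50 UMIs, class markers, genes leading a cluster, Smad3, and the 3 genes most like each receptor among those with an average of at least 0.1 in some cluster. The listed receptors Cmklr2 and Oxer1 had no feature of that symbol, and some genes of the lists are not reported here. Alternatives covered the filter, thinning, scaling, clustering, doublets, markers of other classes and low-count limits. Leaving out shared barcodes, single clusters and the pooled monocyte- or macrophage-like class were added after seeing the data.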

Additional observations from a re-analysis of the deposited data

Results flagged for a closer look

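Ccrl2 had opposite ratios of Smad3-KO to Smad3-WT in the main neutrophil-like clusters. The ratio was 0.779 (95% interval 0.608 to 0.985, 1252 and 74 UMIs) in cluster 1 and 1.81 (1.43 to 2.33, 70 and 4585 UMIs) in cluster 2. The difference between the clusters was not tested, and each side rests on few cells of 1 library, 146 Smad3-KO cells in cluster 1 and 38 Smad3-WT cells in cluster 2.

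Ccr2 had opposite ratios in the mononuclear classes, 2.22 (1.72 to 2.84, 540 and 73 UMIs) in macrophage-like and 0.439 (0.326 to 0.578, 1899 and 52 UMIs) in monocyte-like cells. The difference was not tested, and pooling both classes gave 0.830 (0.688 to 0.994).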

How the results depend on the processing

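No paired analysis was possible because each genotype has 1 library and the replicate number was given in accession order. The count of receptors at least 2-fold higher in Smad3-KO neutrophil-like cells, 1, became 2 with median-of-ratios scaling and 0 in cluster 1 alone. The count at least 2-fold lower, 3, became 1 with that scaling, 1 after thinning to 500 UMIs, 1 in cluster 1 alone and 0 in cluster 2 alone. The shares of all genes past 2-fold were not computed with that scaling or after thinning, so these counts have no background beside them. The other 32 of 38 alternatives left the counts higher and lower within 1.5-fold. Among them, leaving out the cells marked by Scrublet kept all 1810 and 1078 neutrophil-like cells, so it could not move a count. A change from 3 to 2 also lies within 1.5-fold, and a count does not show which receptors make it up. In cluster 2 alone the count higher stayed at 1, but with Fpr1 in place of Ccrl2. Of ratios past 2-fold, the direction reversed in 4 cases: Cxcr2 (1.41) and Ccrl2 (0.779) in cluster 1 alone, and Ccr2 in macrophage-like cells without an upper limit on UMIs (0.903) and at resolution 0.1 (0.617). In both of these Ccr2 settings Smad3-KO had no monocyte-like class of at least 20 cells. The macrophage-like class there can hold other cells than in the main run. Fpr2, within 2-fold, was at 0.820 in cluster 1 alone, and Cxcr4 was at 2.74 in the 166 and 20 cells of cluster 8, which was not run as an alternative. Ratios were also compared over the 15 alternatives other than single clusters, which include leaving out the immature cluster. They ran from 0.463 to 0.577 for Cxcr2, 0.431 to 0.528 for Cxcr4 and 0.376 to 0.465 for Ccr1. For Ccrl2 they ran from 3.51 to 4.30, for Fpr1 from 1.82 to 2.17 and for Fpr2 from 1.30 to 1.55. Of these 15, Cxcr2 was past 2-fold in 11, Cxcr4 in 12, Ccr1 and Ccrl2 in 15, Fpr1 in 1, Fpr2 in 0 and Ccr2 in 5. Ccr2 ran from 0 to 0.797 there, on at most 36 UMIs in a library. Of 460 level values under alternatives, 355 stayed inside the interval and 105 left it, none changing direction since a level has none. Where a class was not found or held fewer than 20 cells, no value was computed. This was so for monocyte-like and Smad3-WT LLC carcinoma-like cells at resolution 0.1, and for Smad3-KO macrophage-like cells with 30 principal components. Smad3-KO monocyte-like cells had no value without an upper limit on UMIs. Leaving out cells with 2 or more UMIs of another class's markers gave none for monocyte- and macrophage-like cells of both libraries and Smad3-WT dendritic-like cells. Levels in those classes were thus not checked in that way. Depth limits the smaller Smad3-KO classes, which had 52 Ccr2 UMIs in monocyte-like cells and 11 Cx3cr1 and 5 Fpr1 UMIs in macrophage-like cells. The cause of these movements was not tested.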
